A study of Mus musculus with 15 samples.

Results

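UV2 tumors were compared with parental tumors across all genes in mice given only isotype control antibody, so that the 2 melanoma lines differed and the therapy did not. Chosen by their group labels, 3 UV2 and 3 parental libraries entered the comparison, 6 of the 15 libraries of the series. The parental tumors grew from D4M.3A.3 cells and the UV2 tumors from the line D3UV2, and the study was designed around UVB-induced putative neoantigens carried by UV2. In both groups, C57BL/6 females aged 8 weeks received 1000000 cells in each flank. The left-flank tumor got isotype antibody on day 8, day 10 and day 12, and bulk tumor RNA was sequenced from tissue removed on day 13. Whether replicate libraries represent different mice is not stated in the labels. Each p-value therefore measures a spread between replicate libraries that may be technical, estimated over all 15 libraries of the series. One UV2 line was used, so that changes made by UVB cannot be told apart from any other difference between the lines. Values are TPM, a transcript level scaled for gene length and for the total of each library, and the depth behind them is unknown.

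Interferons are secreted when cells sense foreign or misplaced nucleic acid, or, for interferon gamma, when T and NK cells are activated. Their receptors activate STAT and IRF transcription factors, which bind short promoter elements and switch on many effectors that block virus replication, present antigen and attract lymphocytes. Prostaglandin E2, made from arachidonic acid through cyclooxygenase, is a lipid mediator with broad immunosuppressive effects in tumors, and its synthesis, like that of other early response genes, is controlled by calcium, cAMP and MAP kinase signals.

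The 6 libraries held 12239 to 12907 genes at 1 TPM or more. Correlations of log2(TPM + 1) across genes ran from 0.942 to 0.990 between parental libraries, from 0.958 to 0.967 between UV2 libraries and from 0.898 to 0.958 between the groups. Parental replicate 3 stood apart from its group: its median correlation was 0.950 with the other parental libraries and 0.956 with the UV2 libraries. It and UV2 replicate 3 carried skeletal muscle RNA, with a summed level of 25 muscle genes of 1068 and 813 TPM, against at most 54.7 TPM in the other 4 libraries. The 16 adipocyte markers summed to 1012 TPM in parental replicate 3 and to between 39.6 and 195.7 TPM elsewhere. In UV2 replicate 2, 53.6% of all tested genes lay below all 3 parental values, against 19.3% in UV2 replicate 1 and 16.4% in UV2 replicate 3.

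With log2(TPM + 1) values and limma's moderated test, 176 of 13592 tested genes passed a Benjamini-Hochberg adjusted p of 0.05, which is 1.29% of the genes. Of these, 123 were higher in UV2 (0.905% of the genes) and 53 were lower (0.39%). The groups did not overlap for any of the 176, whereas 10.4% of all tested genes had every UV2 value above every parental value and 9.15% had the reverse. The split depended on scaling, since 65 genes were higher and 82 lower after median-of-ratios scaling, and 72 were higher and 70 lower after quantile normalization. It also depended on single libraries. Without parental replicate 1, parental replicate 2 or UV2 replicate 2, 3 genes were called each time, and these were Xlr, Klhl4 and Galnt18, whereas 458 were called without parental replicate 3, 408 without UV2 replicate 1 and 61 without UV2 replicate 3. Every gene named below as having risen or fallen, other than those 3, therefore lost its call in at least those 3 fits. Many lost it in more, and Il12b and Oas1c kept it in only 2 of 15 alternative analyses. None of the 176 changed sign in any of the 15.

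**Figure D1:**
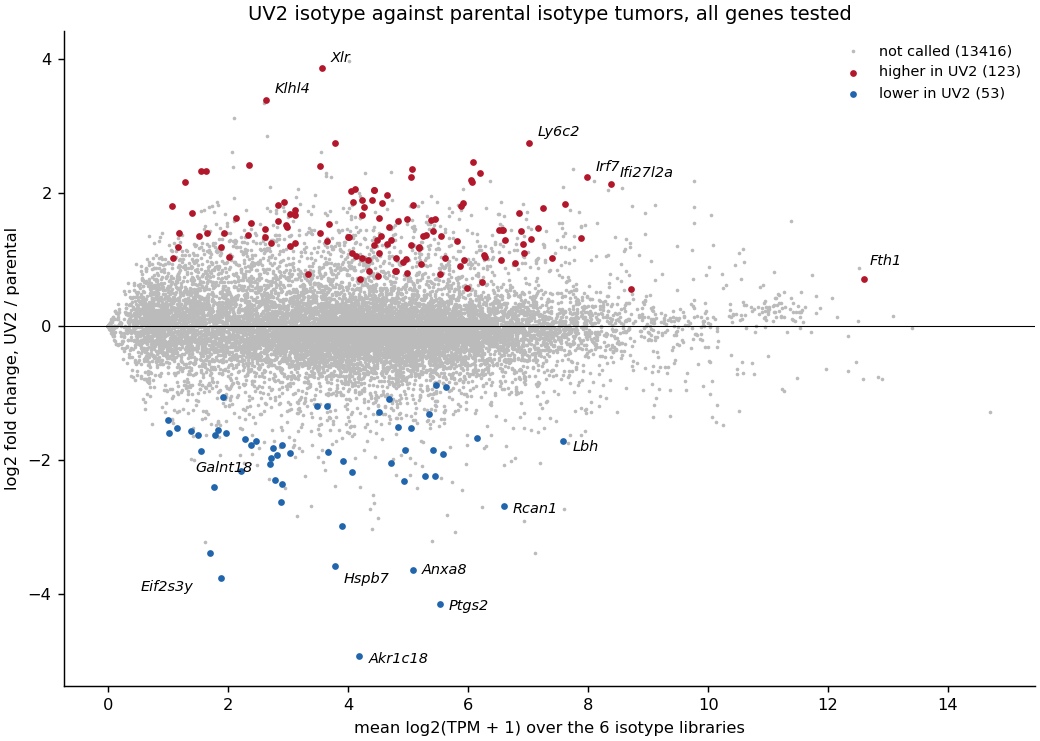
Each point is 1 of the 13592 tested genes; the x axis gives the mean log2(TPM + 1) over the 6 isotype libraries and the y axis the log2 fold change of UV2 over parental. The 123 genes called higher (red) and the 53 called lower (blue) span low and high levels, from Akr1c18 at -4.92 to Xlr at 3.86, while the median of all genes is -0.04.

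Genes that mark the lines were examined first. Transcripts of the Y chromosome were present in parental tumors and listed at 0 in all 3 UV2 libraries. Ddx3y, an RNA helicase gene, had levels of 11.6, 9.56 and 7.55 TPM in the parental libraries. Eif2s3y, a translation initiation factor gene, had 13.8, 12.8 and 11.1 TPM. Both fell (adjusted p of 0.0205 and 0.0205, limma), and no fold is given because the UV2 side is 0. Uty (2.72, 1.80 and 0.99 TPM in parental) and Kdm5d (1.66, 1.86 and 0.71 TPM) were also listed at 0 throughout UV2 but missed the threshold, with adjusted p of 0.054 and 0.0838. Xist, the X-inactivation transcript expressed by cells of the female hosts, measured 11.8, 13.8 and 6.69 TPM in parental and 10.8, 8.23 and 27.8 TPM in UV2 tumors. The Xist ranges overlapped.

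The largest increase among the called genes was in Xlr, a member of a lymphocyte-regulated gene family on chromosome X. Its levels were 2.06, 1.82 and 2.42 TPM in parental and 52.5, 47.99 and 33.2 TPM in UV2 libraries. Every UV2 library lay far above every parental library, with a log2 fold change of 3.86 ± 0.25 (SE) and an adjusted p of 1.06e-05 by limma, and the call held in all 15 alternatives. The 5 tested Xlr genes were all positive, with a median of 1.12, but only Xlr was called. Reads of these near-identical genes may be divided among copies by the counting. Klhl4, a kelch-like gene of the same chromosome, had 1.03, 0.71 and 1.00 TPM in parental and 27.7, 12.2 and 19.8 TPM in UV2 tumors (log2 fold change 3.38 ± 0.39, adjusted p = 0.00443), and it too was called in all 15. Galnt18, which encodes an enzyme that starts mucin-type O-glycans, is named here after its values were seen. It measured 13.8, 11.1 and 10.3 TPM in parental and 2.96, 2.09 and 2.75 TPM in UV2 tumors. It fell by 1.82 ± 0.19 on the log2 scale (adjusted p = 0.00254) and was called in 14 of 15 alternatives.

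Markers of pigmented melanocytes did not consistently separate the lines. Tyrp1 and Dct, enzymes of melanin synthesis, were listed at 0 in all 6 libraries, and Sox10, Pmel and Mlana did not exceed 0.79 TPM in any of them. Mitf, the master regulator of the lineage, measured 9.72, 11.8 and 5.72 TPM in parental and 5.69, 5.28 and 9.44 TPM in UV2 tumors, and Tyr, tyrosinase, 1.49, 2.05 and 2.65 and 2.04, 2.95 and 2.77 TPM. None of the 8 tested lineage genes was called. Every UV2 value was above every parental value for 2 of the 8 and below for 1, against 10.4% and 9.15% of all tested genes. Tyrp1, Dct, Sox10, Pmel and Mlana were thus at or near 0 in tumors of both lines, whereas Mitf and Tyr were detected in all 6 libraries. The kinase gene Braf had overlapping levels of 5.23, 7.57 and 2.89 TPM in parental and 3.84, 2.30 and 5.79 TPM in UV2 tumors. These are levels of bulk tissue that include host cells, and they do not check any engineered allele.

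The most calls in any group of lists belonged to the interferon response. Across 9 lists of interferon ligands, signalling parts and targets, 145 genes were tested, 41 were called higher (28.3%, against 0.905% of all genes) and none was called lower. Their median log2 fold change was 1.18, beside -0.04 for all tested genes, and 133 of the 145 were positive. In bulk tissue, fewer cells of a type and less RNA per cell cannot be told apart, so these levels do not say which cells carried the transcripts.

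Promoters of the genes that rose were examined for the element through which interferon acts. The interferon-stimulated response element, searched on both strands as GAAA, any 2 bases and GAAA, from 250 bases before to 50 bases after each RefSeq gene start, was found for 25 of the 98 higher genes that had a promoter entry (25.5%) and for 0 of the 36 lower genes. A gene with several starts was counted if any of them held a match. The element was held by 3.88% of the 10735 tested genes with an entry and by 3.99% of all genes in the table. The stretches below show it in genes of 5 different families that rose, including the neighbours Oas1a and Oas1g, whose promoters are nearly alike. Capitals mark every match on either strand, and all sequences are RefSeq GRCm38.p6, written 5′ to 3′ in the direction of the gene.
Oas1a, chr5:120907526-120907585, minus strand: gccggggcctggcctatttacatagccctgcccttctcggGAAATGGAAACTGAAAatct
Oas1g, chr5:120887614-120887673, minus strand: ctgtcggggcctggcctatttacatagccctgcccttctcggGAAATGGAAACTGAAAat
Oas3, chr5:120777700-120777759, minus strand: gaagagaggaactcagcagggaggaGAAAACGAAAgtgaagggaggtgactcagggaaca
Phf11b, chr14:59341346-59341405, minus strand: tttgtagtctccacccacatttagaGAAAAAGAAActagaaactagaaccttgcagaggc
Slfn8, chr11:83020824-83020883, minus strand: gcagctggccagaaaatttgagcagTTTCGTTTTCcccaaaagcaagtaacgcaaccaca
Socs1, chr16:10785585-10785644, minus strand: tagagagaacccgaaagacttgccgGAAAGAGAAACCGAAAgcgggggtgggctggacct
Ddx60, chr8:61928027-61928086, plus strand: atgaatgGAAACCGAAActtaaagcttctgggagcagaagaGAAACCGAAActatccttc

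A match is a description of these letters and not evidence of binding. In Oas1a the 2 matches overlap and end 5 bases before the start, and Socs1 likewise holds 2 overlapping matches, whereas the 2 matches of Ddx60 are separate. Among the lists, 13 of 31 antiviral effector genes, 9 of 19 sensors, 9 of 14 Trim and Phf11 genes and all 5 guanylate-binding protein genes with an entry held the element, against 0 of 11 T cell markers and 1 of 22 monocyte and macrophage markers. The division was not clean: 1 of 8 PARP genes and 3 of 19 interferon ligand, receptor and signalling genes held it, as did 5 of 23 cytosolic ribosomal protein genes. Immune lists also varied. It was held by 3 of 17 cytotoxic effectors, 2 of 8 B and plasma cell markers, 2 of 11 plasmacytoid dendritic cell markers and 5 of 20 class I presentation genes. In contrast, 0 of 17 NK cell, 0 of 16 neutrophil and 0 of 14 conventional dendritic cell markers held it.

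The oligoadenylate synthetases make the second messenger that activates RNase L upon sensing double-stranded RNA, and 7 of their 10 tested genes rose. Oas1a levels were 28.4, 18.8 and 49.01 TPM in parental and 105, 186 and 139 TPM in UV2 tumors. Every UV2 library lay above every parental library, although parental replicate 3 was higher than its group, and the log2 fold change was 2.19 ± 0.38 (adjusted p = 0.026). Oas3, which makes the longest of these enzymes, measured 11.02, 6.85 and 8.85 TPM and 24.2, 32.7 and 55.3 TPM. The change of 1.89 ± 0.38 had an adjusted p of 0.0376. Oasl1, a catalytically inactive relative, had 12.7, 10.6 and 12.01 TPM in parental and 37.7, 53.8 and 56.2 TPM in UV2 tumors (1.96 ± 0.32, adjusted p = 0.0214). The 13 genes of the list that are in the table summed to between 120.3 and 156 TPM in parental and between 355 and 542 TPM in UV2 libraries, with no overlap. From its first to its last called gene, the Oas cluster, chr5:120753098-120907521 (GRCm38), held 6 tested genes. Of these 5 rose: Oas3, Oas1c, Oas1b, Oas1g and Oas1a. These neighbours are similar in sequence, and the division of reads among them is uncertain. Several of the calls were fragile: of 15 alternatives, Oas1c kept its call in 2, Oas1b in 3, Oasl2 in 4 and Oas3 in 7. Oas1a and Oas1g kept it in 9 each and Oasl1 in 10. Oas1b and Oasl2 lost it under both median-of-ratios scaling and quantile normalization.

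Among 37 tested antiviral effectors, 12 rose, 36 were positive and 32 had every UV2 value above every parental value. Uba7, the activating enzyme for the ubiquitin-like protein ISG15, measured 22.3, 22.6 and 23.2 TPM in parental and 43.7, 59.7 and 79.9 TPM in UV2 libraries. The parental values were almost equal and each UV2 value exceeded them, with a change of 1.35 ± 0.20 and an adjusted p of 0.0205. Mx1, of a family of dynamin-like GTPases, had 10.6, 9.53 and 8.24 TPM and 26.6, 31.4 and 49.5 TPM (1.78 ± 0.32, adjusted p = 0.0291). Mx2 had 3.07, 4.59 and 3.26 TPM and 10.3, 14.2 and 12.4 TPM (1.52 ± 0.29, adjusted p = 0.0326). GENCODE annotates Mx2, like Oas1b of the cluster above, as a polymorphic pseudogene, and protein function was not measured. The exonuclease gene Isg20 measured 19.2, 21.5 and 21.2 TPM and 43.8, 55.4 and 49.4 TPM, an increase of 1.22 on the log2 scale (adjusted p = 0.0312). Sp110 and Sp100, nuclear body proteins, rose by 1.80 and 1.35 (adjusted p of 0.0214 and 0.0308). With Sp140 and C130026I21Rik they formed 4 of the 6 tested genes in chr1:84992690-85709998, an interval bounded by called genes. The exception in sign was Ifitm1, a membrane protein that hinders virus entry, at 63.7, 39.9 and 189 TPM in parental and 11.5, 17.2 and 108 TPM in UV2 tumors (-1.45, adjusted p = 0.302). Its ranges overlapped.

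Cytosolic sensors of nucleic acid rose in 5 of 25 cases, with a list median of 0.88. Ifih1, the MDA5 sensor of long double-stranded RNA, measured 14.7, 13.8 and 11.1 TPM in parental and 24.9, 31.2 and 41.4 TPM in UV2 tumors. All UV2 values were higher, by 1.22 ± 0.25 (adjusted p = 0.0386). Dhx58, a regulator of the RIG-I-like sensors, had 26.4, 19.8 and 26.4 TPM and 55.5, 87.1 and 87.8 TPM (1.61 ± 0.33, adjusted p = 0.0386). Trex1, the exonuclease that removes cytosolic DNA, rose from 47.05, 48.04 and 79.8 TPM to 133, 171 and 163 TPM (1.44 ± 0.24, adjusted p = 0.0222). Pyhin1 and Ddx60 completed the 5, with changes of 1.61 and 1.34. Mavs, the adaptor downstream of the RNA sensors, was the lowest of the list at 44.1, 47.4 and 32.8 TPM in parental and 29.7, 19.8 and 32.4 TPM in UV2 tumors (-0.60, adjusted p = 0.181).

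Of 21 tested interferon ligand, receptor and signalling genes, 5 rose: Irf7, Irf9, Irf8, Irf5 and Socs1. Irf7, the factor that amplifies type I interferon production, had levels of 116, 87.6 and 151 TPM in parental and 399.7, 645 and 623 TPM in UV2 libraries. The groups did not overlap and UV2 replicate 1 was the lowest of its group, and the change was 2.23 ± 0.46 with an adjusted p of 0.0393 (0.0336 to 0.178 over the alternatives). Irf9, the DNA-binding subunit of the complex activated by type I interferon, measured 42.1, 44.9 and 38.7 TPM and 66.2, 78.8 and 93.6 TPM (0.90 ± 0.17, adjusted p = 0.0312). Socs1, the feedback inhibitor of JAK kinases, rose from 9.17, 10.7 and 15.5 TPM to 30.1, 63.7 and 43.5 TPM (1.84 ± 0.36, adjusted p = 0.0375). The ligands themselves were scarce: Ifnb1 was below the filter at 0, 0 and 0.30 TPM in parental and 0.18, 1.06 and 0.33 TPM in UV2 tumors, and Ifna1, Ifna2, Ifna4 and Ifna5 were listed at 0 in all 6. Ifng, interferon gamma, had overlapping levels of 2.32, 1.54 and 5.41 TPM in parental and 3.32, 14.8 and 12.6 TPM in UV2 tumors (1.37, adjusted p = 0.177).

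Trim and Phf11 genes showed 7 called of 15 tested, with a median of 1.18. Phf11a, a PHD finger gene, measured 8.96, 9.09 and 10.8 TPM in parental and 33.9, 47.3 and 48.1 TPM in UV2 tumors, with both groups narrow and well apart (2.04 ± 0.33, adjusted p = 0.0214). Its neighbour Phf11b had 14.5, 7.73 and 23.3 TPM and 51.3, 89.2 and 91.8 TPM (2.35 ± 0.42, adjusted p = 0.0279). Trim30a, a regulator of NF-kB signalling, measured 26.1, 22.8 and 26.3 TPM and 49.5, 71.9 and 90.4 TPM (1.42 ± 0.24). With Trim34a, Trim12a and Trim12c, whose changes ran from 1.02 to 1.36, it made up 4 of the 5 tested genes in chr7:104244457-104465193, bounded by called genes. Schlafen genes, which restrict translation and lymphocyte growth, gave 3 called of 8: Slfn1 (2.23), Slfn2 (1.47) and Slfn8 (1.24). These 3 and AI662270 were 4 of 7 tested genes in chr11:83002158-83226604, which called genes bound as well. The PARP family gave 2 of 11. Parp10, a mono-ADP-ribosyltransferase, measured 21.6, 24.6 and 22.96 TPM in parental and 48.1, 56.5 and 55.1 TPM in UV2 tumors (1.17 ± 0.19, adjusted p = 0.0214), and Parp14 changed by 1.28 (adjusted p = 0.044).

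Guanylate-binding proteins, immunity-related GTPases and antigen presentation genes gave 1 call in all. The 11 guanylate-binding proteins, GTPases that attack the vacuoles of intracellular microbes, had a median of 1.55, above that of the oligoadenylate synthetases at 1.32, and 9 of the 11 had every UV2 value above every parental value, yet 0 were called. Gbp5 measured 23.8, 28.8 and 15.3 TPM in parental and 42.95, 69.5 and 97.1 TPM in UV2 tumors, a difference of 1.55 ± 0.43 (adjusted p = 0.0906). Gbp1 had 0.16, 0.82 and 2.24 TPM and 3.06, 49.7 and 33.3 TPM (3.34 ± 0.98, adjusted p = 0.104). UV2 replicate 1 was the lowest UV2 library for both genes. None of the 9 immunity-related GTPases and none of the 25 class I antigen presentation genes was called, with medians of 0.96 and 0.68, although 1 of the 9 and 3 of the 25 were negative. B2m, the light chain of class I molecules, overlapped at 8189.6, 8005 and 8348 TPM and 5998, 11877 and 10697 TPM. Of 13 class II genes, H2-DMb2 rose (2.80, 4.25 and 4.68 TPM to 9.92, 19.3 and 15.1 TPM, 1.66 ± 0.35, adjusted p = 0.0425), and the list median was 1.58.

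T cell markers were high in UV2 replicates 2 and 3 but not in UV2 replicate 1. Cd3e, a chain of the T cell receptor complex, measured 5.46, 5.51 and 14.9 TPM in parental and 6.72, 27.8 and 34.3 TPM in UV2 tumors. UV2 replicate 1 lay inside the parental range, and the other UV2 libraries lay above it (1.18 ± 0.58, adjusted p = 0.315). Cd8a, a marker of cytotoxic T cells, had 6.89, 4.69 and 15.9 TPM and 5.60, 39.3 and 36.9 TPM with the same arrangement (1.24 ± 0.64, adjusted p = 0.34). All 19 tested T cell markers were positive with a median of 1.28, 0 had groups that did not overlap and 0 were called. In UV2 replicate 1, 0 of these 19 exceeded all parental values, against 17 in replicate 2 and 19 in replicate 3. In the same library, 9 of 10 oligoadenylate synthetases, 34 of 37 antiviral effectors and 20 of 25 sensors exceeded all parental values, as did 30.4% of all tested genes. These counts are not set against like ranges. For the oligoadenylate synthetases, the mean parental levels were 3.22, 2.93 and 3.20, so parental replicate 3 was not raised. The 20 T cell markers in the table summed to 238 TPM in UV2 replicate 1, to at most 705 TPM in the other UV2 libraries and to between 180.1 and 365 TPM in parental tumors. Some other immune lists were arranged differently. In UV2 replicate 1, 8 of 14 plasmacytoid dendritic cell markers and 8 of 14 mast cell, basophil and eosinophil markers exceeded all parental values, against 8 and 11 in replicate 2 and 10 and 9 in replicate 3. Summed levels of those 2 lists and of conventional dendritic cell markers were above the parental range in every UV2 library.

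**Figure D2:**
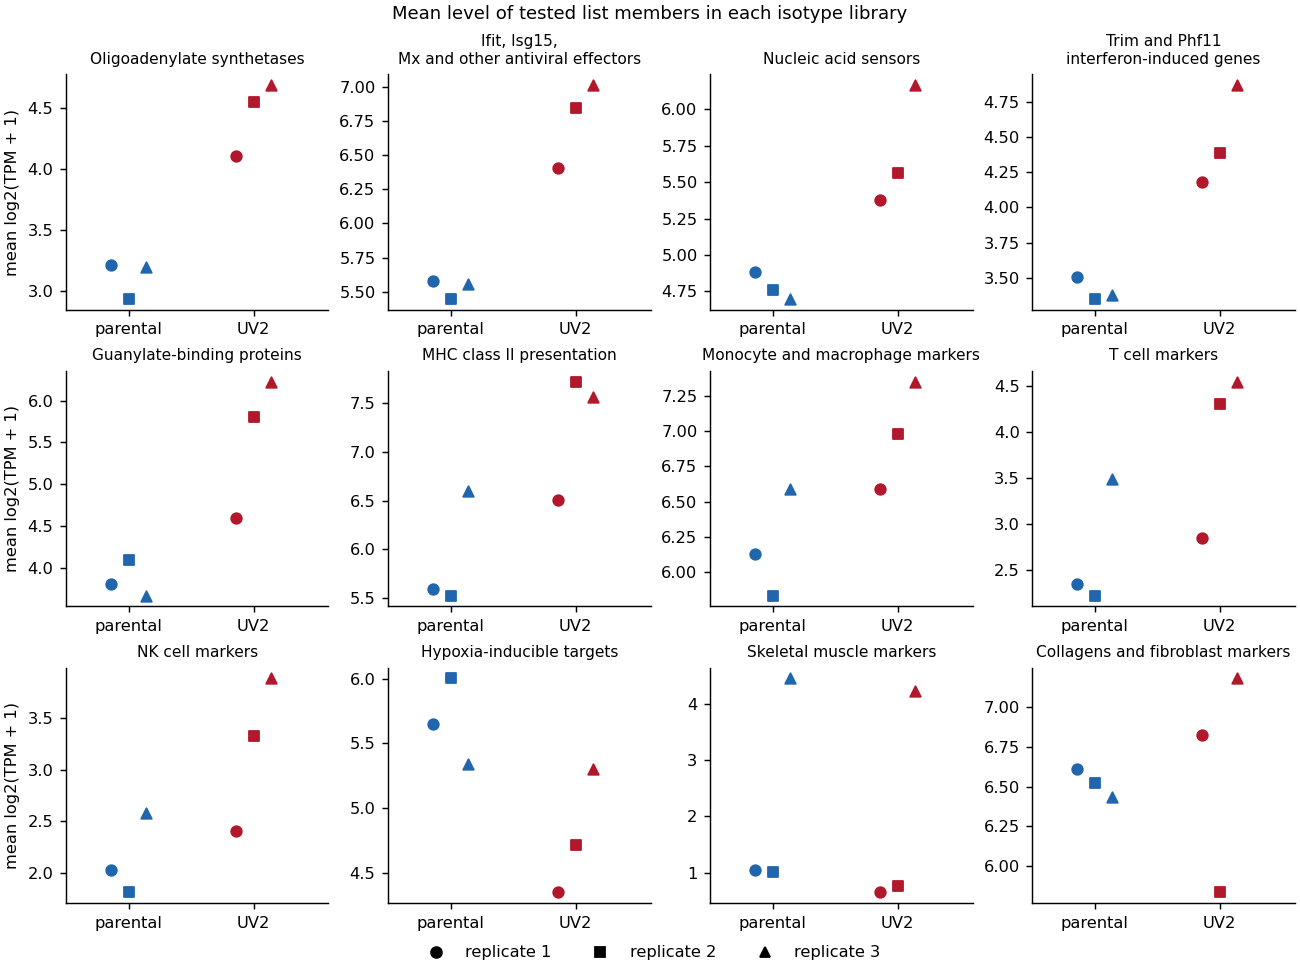
Mean log2(TPM + 1) of the tested members of 12 gene lists in each isotype library, with parental libraries in blue, UV2 in red and the shape giving the replicate number; each panel has its own y range. In the 4 antiviral lists of the top row every UV2 library is above every parental library, whereas UV2 replicate 1 lies among or near the parental libraries for T cell and NK cell markers, and both libraries numbered 3 are high for muscle.

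Immune inhibitory receptors and their ligands were examined next. Pdcd1, the PD-1 receptor, had 6.84, 4.05 and 12.6 TPM in parental and 4.06, 29.00 and 31.00 TPM in UV2 tumors (1.06, adjusted p = 0.427), and Cd274, its ligand, had 22.1, 24.1 and 16.6 TPM and 15.7, 30.3 and 60.2 TPM (0.55, adjusted p = 0.541). UV2 replicate 1 was nearly equal to the lowest parental library for Pdcd1 and below all of them for Cd274. Of 14 such receptors and ligands and of 18 cytotoxic effectors, 0 were called. NK cell markers gave 1 call of 21, Xcl1, a chemokine that attracts cross-presenting dendritic cells, at 8.01, 4.62 and 11.2 TPM in parental and 25.9, 44.4 and 34.8 TPM in UV2 tumors (2.05 ± 0.39, adjusted p = 0.0313). Ncr1, a defining NK receptor, measured 2.52, 2.52 and 1.37 TPM and 3.70, 5.05 and 15.5 TPM. Of 10 tested B and plasma cell markers, 0 were called.

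Myeloid genes contributed several calls. Ly6c2, a surface protein of inflammatory monocytes that is also interferon-inducible, measured 42.2, 22.8 and 119 TPM in parental and 274, 306 and 439 TPM in UV2 tumors. Parental replicate 3 was the highest parental library and the gap to UV2 remained (2.75 ± 0.60, adjusted p = 0.044). Of 30 monocyte and macrophage markers, 2 rose, Ly6c2 and Fcgr1, the high-affinity receptor for IgG, at 60.8, 47.4 and 80.7 TPM and 109, 163 and 197 TPM (1.29 ± 0.27, adjusted p = 0.0395). Csf1r, the receptor for macrophage growth factor, lay above the parental range in every UV2 library (119, 113 and 135 TPM against 203, 168 and 306 TPM), with an adjusted p of 0.226. The 30 markers summed to 7731, 6611 and 11577 TPM in parental and between 11094 and 17911 TPM in UV2 libraries, so the ranges overlapped through parental replicate 3. Every UV2 value was above every parental value for 12 of the 30 and below for 0, against 10.4% and 9.15% of all tested genes. Of 17 conventional dendritic cell markers, 2 rose, Irf8 and Naaa, a lysosomal amidase, at 27.1, 19.3 and 54.2 TPM and 102, 177 and 151 TPM (2.16 ± 0.41, adjusted p = 0.0312). Mature dendritic cell genes gave 2 of 17: Cd40, the receptor through which helper T cells license these cells (7.23, 7.52 and 17.7 TPM against 28.7, 49.3 and 43.1 TPM, 1.88 ± 0.35, adjusted p = 0.0308), and Il12b (1.39). All UV2 values exceeded all parental values for 7 of the 17 conventional and 8 of the 17 mature dendritic cell genes, and 0 had the reverse. The share of these marker levels in the interferon-related differences was not tested.

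Cytokine genes gave 3 calls of 24, all higher, against 0.905% of all tested genes called higher. Tnf, tumor necrosis factor, measured 4.11, 4.54 and 5.22 TPM in parental and 10.2, 11.01 and 16.3 TPM in UV2 tumors, with narrow groups (1.24 ± 0.19, adjusted p = 0.0214). Il10 rose from 1.42, 0.81 and 2.58 TPM to 4.38, 8.79 and 7.55 TPM (1.61 ± 0.35, adjusted p = 0.044), and Il12b, a subunit of interleukin 12, from 0.82, 1.20 and 0.79 TPM to 2.21, 4.87 and 5.89 TPM. Il11, a cytokine of the interleukin 6 family, was the lowest of the list, at 45.2, 34.95 and 44.6 TPM in parental and 3.96, 5.01 and 16.3 TPM in UV2 tumors, with no overlap but an adjusted p of 0.126 (-2.40 ± 0.78). Serpina3g, an inhibitor of cathepsins, measured 24.1, 22.3 and 40.6 TPM and 96.6, 217 and 185 TPM (2.45 ± 0.40, adjusted p = 0.0214), while its relative Serpina3n, an inhibitor of granzyme B, lay in the opposite direction at 242, 181 and 173 TPM in parental and 29.96, 31.5 and 103 TPM in UV2 tumors (-2.07, adjusted p = 0.0794). Slc2a6, a sugar transporter named after its values were seen, rose from 3.08, 2.55 and 3.40 TPM to 13.2, 13.9 and 13.2 TPM, with the 3 UV2 libraries almost equal (1.85 ± 0.25, adjusted p = 0.0147).

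The genes that fell included an enzyme and a receptor of prostaglandin metabolism. Akr1c18, an aldo-keto reductase that inactivates progesterone and can make prostaglandin F2 alpha, measured 119, 83.01 and 98.1 TPM in parental and 3.08, 0.68 and 4.23 TPM in UV2 tumors. No UV2 library reached 5 TPM and no parental library was below 80 TPM. It fell by 4.92 ± 0.76 on the log2 scale (adjusted p = 0.0214, from 0.0150 to 0.124 over the alternatives). Ptgs2, the inducible cyclooxygenase, had 246, 148 and 198 TPM and 4.81, 9.53 and 20.5 TPM, and it fell by 4.14 ± 0.82 (adjusted p = 0.0376). Ptgfr, the receptor for prostaglandin F2 alpha, fell from 38.1, 42.95 and 24.8 TPM to 6.19, 4.22 and 11.9 TPM (-2.17 ± 0.41, adjusted p = 0.0308). Tbxas1, thromboxane synthase, went the other way, at 7.93, 7.89 and 13.7 TPM in parental and 23.8, 47.2 and 30.3 TPM in UV2 tumors (1.67 ± 0.34, adjusted p = 0.0386). Ptgs2, Ptgfr and Tbxas1 were the 3 calls among 22 prostaglandin genes, whose median was 0.04, and Akr1c18 was the 1 call among 19 aldo-keto reductase and steroid genes, also with a median of 0.04.

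**Figure D3:**
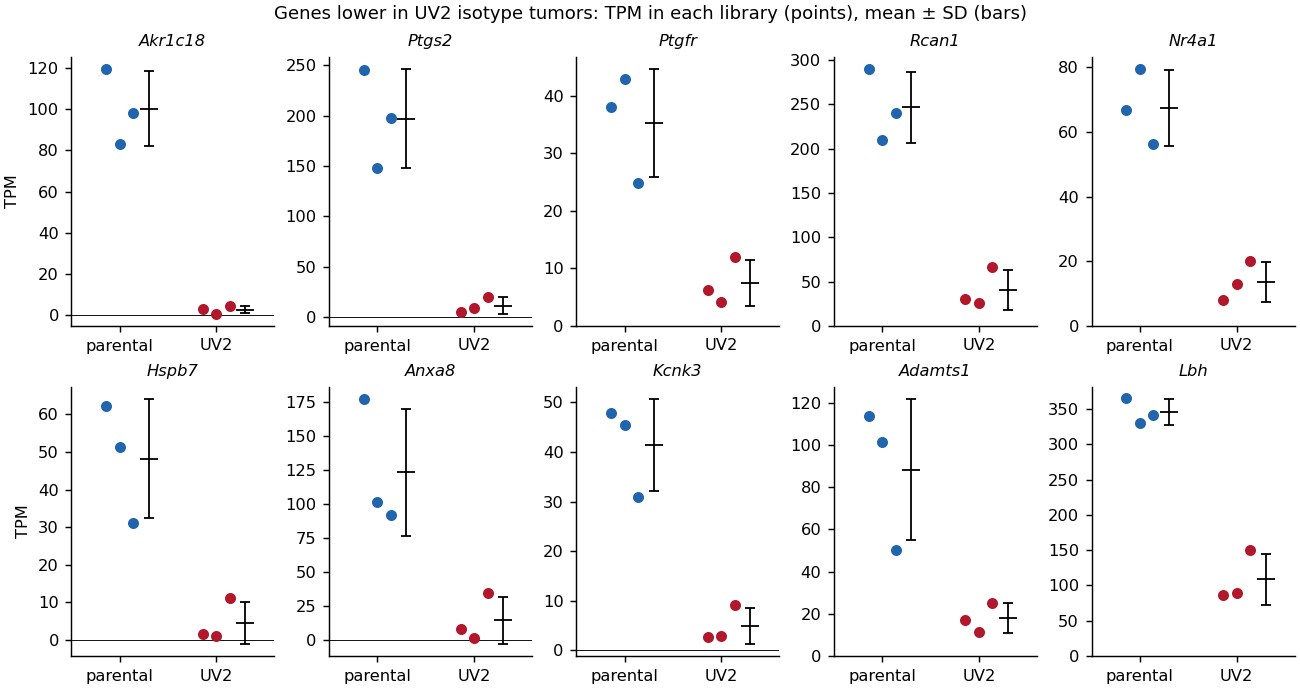
TPM of 10 genes that fell, with 1 point for each of the 3 parental (blue) and 3 UV2 (red) libraries and bars for the mean ± SD of each group. In all 10 panels the highest UV2 library is below the lowest parental library, and UV2 replicate 3 is the highest UV2 library.

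The calcineurin and NFAT list and the immediate early list each had 1 gene that fell, with medians of -0.25 and -0.05. Rcan1, an inhibitor of calcineurin and itself a calcineurin target, measured 289.6, 210.01 and 239.8 TPM in parental and 29.9, 25.7 and 66.2 TPM in UV2 tumors. The highest UV2 value, in replicate 3, was far below the lowest parental value, and the gene fell by 2.69 ± 0.54 (adjusted p = 0.0386). It was the only call among 17 calcineurin and NFAT genes. Nr4a1, an orphan nuclear receptor of the early response, had 66.9, 79.6 and 56.2 TPM and 7.89, 12.8 and 20.1 TPM (-2.30 ± 0.49, adjusted p = 0.0421), 1 call of 27 immediate early genes, of which 15 were negative and 12 positive. Its relative Nr4a2 had 71.1, 80.8 and 25.4 TPM and 6.76, 4.69 and 13.7 TPM, without overlap, but an adjusted p of 0.0606. Egr2, of the same list, had the opposite sign (1.30, adjusted p = 0.0887). Gem, a small GTPase outside both lists that restrains calcium channels, fell from 102, 133 and 60.05 TPM to 17.4, 15.4 and 25.4 TPM (-2.24 ± 0.48, adjusted p = 0.044).

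A promoter window of Rcan1 is shown because it holds a cAMP response element, TGACGTCA, which reads the same on both strands. The window belongs to a start inside the gene, which spans chr16:92391953-92470867.
Rcan1, chr16:92400219-92400278, minus strand: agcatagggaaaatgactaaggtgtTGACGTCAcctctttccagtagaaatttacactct
This element was found for 3 of 36 lower genes (8.33%), 3 of 98 higher genes (3.06%) and 3.45% of tested genes with a promoter entry.

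Further genes that fell are given singly and stand for no list. Hspb7, a small heat shock protein of muscle, measured 62.2, 51.3 and 31.04 TPM in parental and 1.64, 0.95 and 10.98 TPM in UV2 tumors (-3.58 ± 0.61, adjusted p = 0.0222). UV2 replicate 3, the UV2 library with muscle RNA, was the highest of its group but below every parental library. Anxa8, a calcium-dependent phospholipid-binding protein, had 177, 102 and 91.9 TPM and 8.18, 1.66 and 34.4 TPM (-3.65 ± 0.70, adjusted p = 0.0324). Kcnk3, an acid-sensitive potassium channel, had 47.8, 45.5 and 30.8 TPM and 2.76, 2.91 and 9.04 TPM (-2.98 ± 0.56). Adamts1, a secreted protease that cleaves proteoglycans, fell from 114, 101 and 50.4 TPM to 17.1, 11.2 and 25.2 TPM (-2.23 ± 0.39, adjusted p = 0.026), while Timp3, an inhibitor of such proteases, rose from 66.1, 96.8 and 38.9 TPM to 262, 151 and 221 TPM (1.69 ± 0.30, adjusted p = 0.029). Those were the 2 calls among 20 genes of matrix proteases and their inhibitors, 1 in each direction. Tnfrsf11b, osteoprotegerin, measured 31.7, 29.1 and 27.4 TPM and 6.86, 5.90 and 6.93 TPM, with both groups narrow (-2.01 ± 0.41). Clu, an extracellular chaperone, and Stc1, a secreted glycoprotein hormone, fell by 2.04 and 2.05 (adjusted p of 0.0386 and 0.0386).

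Snai2, a transcription factor of the mesenchymal state, missed the threshold, at 13.8, 13.6 and 13.5 TPM in parental and 46.05, 22.9 and 21.7 TPM in UV2 tumors (1.01, adjusted p = 0.08). Spp1, osteopontin, the most abundant transcript of every parental library, measured 48807, 49587 and 30084 TPM in parental and 12081, 22936 and 18189 TPM in UV2 tumors. The groups did not overlap, but the difference of -1.28 ± 0.61 had an adjusted p of 0.292. Tubb3, a neuronal tubulin, and Lbh, a transcriptional cofactor, both named after their values were seen, fell from 133, 123 and 118 TPM to 28.2, 40.9 and 50.3 TPM and from 367, 329.9 and 342 TPM to 86.7, 88.9 and 151 TPM (adjusted p of 0.0222 and 0.0386). Hgf, hepatocyte growth factor, and Angpt2, an antagonist of the Tie2 receptor, also chosen after their values were seen, fell by 1.87 and 1.20 (adjusted p of 0.0461 and 0.0214).

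Hypoxia targets and glycolysis genes had mostly negative differences, and nearly all missed the test. Of 30 hypoxia-inducible genes, 28 were negative with a median of -0.86. Every UV2 value was below every parental value for 12 of them, against 9.15% of all tested genes. Only 1 was called lower, against 0.39% of all tested genes. That gene was Adm, the vasodilator adrenomedullin, at 12.9, 25.2 and 9.71 TPM in parental and 1.73, 4.71 and 3.91 TPM in UV2 tumors (-1.89 ± 0.41, adjusted p = 0.044). Ankrd37, the lowest of the list, measured 59.9, 74.5 and 39.1 TPM and 5.58, 19.2 and 24.7 TPM (-1.92, adjusted p = 0.103). Of 21 glycolysis genes, 18 were negative with a median of -0.56 and 0 were called. Ldha, lactate dehydrogenase, had 2266, 2279 and 2125 TPM in parental and 1113, 1494 and 1519 TPM in UV2 tumors, with no overlap and an adjusted p of 0.11, and Pkm, pyruvate kinase, had 3732, 3792 and 2849.8 and 1522, 1586 and 2278 TPM with an adjusted p of 0.0943. Both lists kept negative medians under each scaling, at -0.80 and -0.49 after median-of-ratios scaling. Without both libraries numbered 3, the pair that carried muscle RNA, 13 hypoxia genes were called lower, an alternative added after the data were seen in which 245 of all 13592 genes were called lower, against 53.

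MAPK pathway output genes were lower in 17 of 19 cases with a median of -0.79, and 0 were called. Ier3, an early response gene of this pathway, measured 179.6, 232 and 218 TPM in parental and 31.6, 59.6 and 71.4 TPM in UV2 tumors, without overlap but with an adjusted p of 0.0753. Etv4, an ETS factor downstream of ERK, had 92.2, 89.6 and 78.4 TPM and 38.3, 29.9 and 45.8 TPM (-1.19, adjusted p = 0.135), whereas Spry1, a feedback inhibitor, had the opposite sign at 46.5, 71.2 and 28.6 TPM and 102, 99.3 and 71.3 TPM (0.96, adjusted p = 0.445). Of 24 sterol synthesis genes 21 were negative, with a median of -0.54 and 0 called, and the 34 cell division genes had a median of -0.28 and 0 called. Mki67, the proliferation marker, overlapped at 45.2, 52.6 and 26.4 TPM and 34.8, 20.4 and 47.9 TPM. In the p53 list, 2 of 30 rose: Bbc3, which encodes the death-promoting protein PUMA, from 1.61, 2.50 and 4.57 TPM to 8.51, 9.73 and 9.19 TPM (1.45 ± 0.26, adjusted p = 0.026), and Fas, a death receptor, from 11.7, 9.56 and 12.4 TPM to 19.3, 27.1 and 27.4 TPM (1.06 ± 0.19, adjusted p = 0.0308). Their list median was 0.21, and 0.905% of all tested genes rose.

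A few further genes rose that belong to none of these programs. Ccdc3, a secreted coiled-coil protein, measured 3.22, 6.98 and 3.45 TPM in parental and 58.5, 38.9 and 17.8 TPM in UV2 tumors (2.74 ± 0.53, adjusted p = 0.0329). Frzb, a secreted Wnt antagonist, was below 1 TPM in every parental library (0.15, 0.62 and 0.22 TPM) and had 7.06, 7.05 and 3.32 TPM in UV2 (2.32 ± 0.49, adjusted p = 0.0421), the only call among 17 Wnt genes. Dkk2, another Wnt antagonist, lay in the opposite direction at 199.5, 229 and 151 TPM and 31.8, 17.6 and 41.2 TPM, with an adjusted p of 0.12. Nrgn, a calmodulin-binding protein of neurons, had 0.54, 0.61 and 3.30 TPM and 8.33, 11.7 and 12.8 TPM (2.42 ± 0.37, adjusted p = 0.0205). Id1, a target of BMP signalling, missed the threshold at 25.4, 28.3 and 36.7 TPM and 84.4, 88.9 and 40.8 TPM (1.15 ± 0.26, adjusted p = 0.0532), and 0 of 32 genes of the activin, BMP and TGF-beta list were called.

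Stromal and keratinocyte lists showed little separation gene by gene. Endothelial and pericyte markers (26 tested) and collagens and fibroblast markers (29 tested) each had 0 calls, with medians of -0.01 and 0.11, and the 20 keratinocyte markers had 0 calls as well. However, the 24 keratinocyte and hair follicle genes summed to between 192.6 and 354.7 TPM in parental and between 127.4 and 150.6 TPM in UV2 libraries, without overlap. Pecam1, an endothelial adhesion molecule, measured 32.4, 34.8 and 48.1 TPM in parental and 27.4, 35.5 and 52.1 TPM in UV2 tumors. Col1a1, the chain of type I collagen, measured 817, 894 and 722 TPM and 1023, 312 and 1733 TPM, with UV2 values on both sides of the parental range. Postn, periostin of the tumor matrix, lay above the parental range in every UV2 library (225, 241 and 219 TPM against 1059, 565 and 842 TPM), but its adjusted p was 0.113. Krt14, a keratin of basal epidermis, did not exceed 0.63 TPM in any library.

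**Figure D4:**
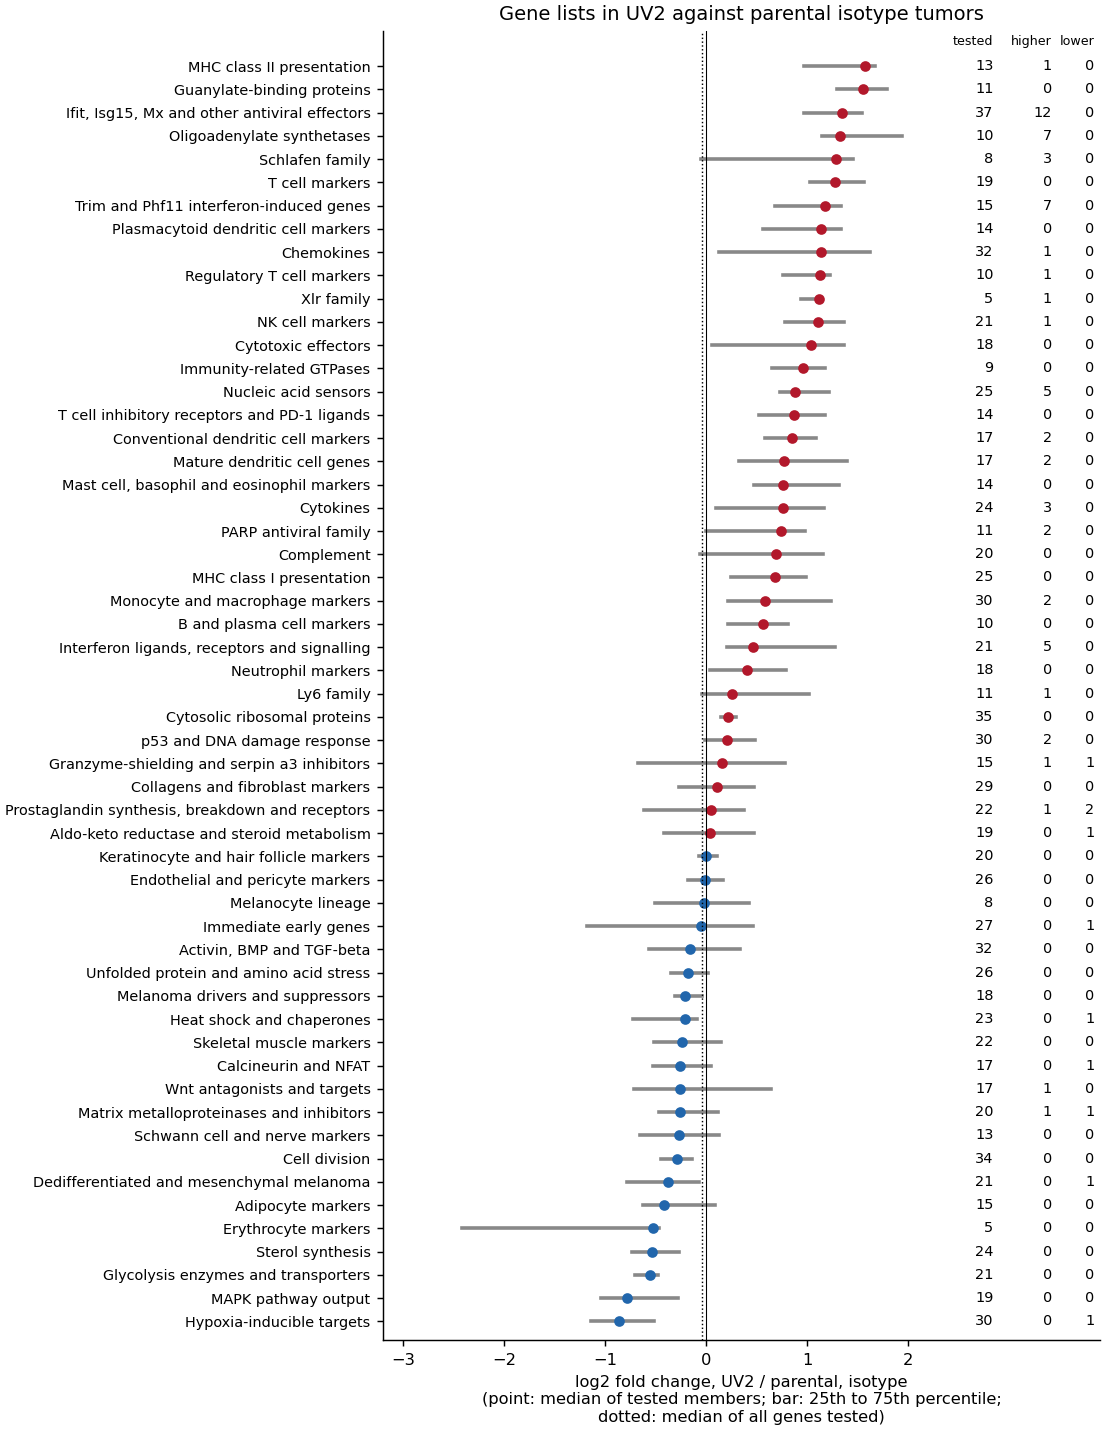
Median log2 fold change (point) and 25th to 75th percentile (bar) of the tested members of each gene list with at least 5 of them, with the numbers tested, called higher and called lower at the right and the median of all genes as a dotted line. The oligoadenylate synthetase, antiviral effector and Trim lists combine high medians with calls, whereas guanylate-binding protein and T cell lists have medians of 1.55 and 1.28 with 0 calls, and hypoxia targets are lowest at -0.86.

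Calls were also examined by chromosome. Medians of the 20 chromosomes other than Y ran from -0.12 (chromosome 18) to 0.03 (chromosome 17). X held 5 called genes of 418 tested, near the share of 1.29% among all tested genes. Beyond the Oas, Sp, Schlafen and Trim neighbours above, 4 of 71 tested genes in chr17:33909414-35202007, within the region of the major histocompatibility complex, rose: Daxx, H2-DMb2, Abhd16a and Tnf. Each interval given here and above was drawn from its first to its last called gene, so a raised share of calls inside it is built in. Over all tested genes, 0.905% rose.

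The same 2 lines were compared in mice given anti-PD-1, an antibody against the T cell inhibitory receptor, in 6 libraries that share none with the isotype comparison. There 3586 of 13592 genes passed the test (26.4%), 9.31% of all genes higher and 17.1% lower. Of the 123 genes higher under isotype, 122 had the same sign, 94 were called higher and 102 did not overlap, with a median of 1.19 beside 1.39 under isotype. Of the 53 lower genes, all had the same sign, 49 were called lower and 51 did not overlap, with a median of -1.66 beside -1.85. Of all 13592 tested genes, 10903 had the same sign under both antibodies and 6370 did not overlap under anti-PD-1 in the direction of their isotype difference. By limma's contrast of the 2 line effects, 0 of 13592 genes were called as differing between the antibodies, and 404 had an unadjusted p under 0.05. An absence of calls does not show that the 2 line effects were equal. Without parental anti-PD-1 replicate 3 or UV2 anti-PD-1 replicate 3, 9 genes were called in the anti-PD-1 comparison.

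Xlr measured 3.18, 1.46 and 1.40 TPM in the parental and 23.5, 27.97 and 29.6 TPM in the UV2 anti-PD-1 libraries (3.26 ± 0.25, adjusted p = 8.36e-05). Akr1c18 measured 107, 35.7 and 129 TPM and 6.87, 10.3 and 1.28 TPM there (-3.77 ± 0.76, adjusted p = 0.0124), and Ptgs2 473, 83.01 and 337 TPM and 36.7, 38.3 and 6.74 TPM (-3.40, adjusted p = 0.0197). All 3 genes thus showed the line difference under either antibody. Irf7, at 1.78 (adjusted p = 0.0232), and Phf11a, at 2.09 (adjusted p = 0.00957), were called as well, but Mx2 (0.63, adjusted p = 0.111), Ifih1 (0.50, adjusted p = 0.133) and Oasl2 (0.67, adjusted p = 0.107) were not. Over the 9 interferon lists the median was 0.67 under anti-PD-1 and 1.18 under isotype, beside medians of all genes of -0.21 and -0.04, and 49 of 145 genes were called higher. Cd3e, 1.18 under isotype, was 2.21 under anti-PD-1 (adjusted p = 0.0241). By limma's contrast of the 2 line effects, none of Cd3e, Mx2, Ifih1 and Oasl2 was called as differing between the antibodies. The adjusted p of that contrast was 0.8 for each of Mx2, Ifih1 and Oasl2. Ccdc3 was the 1 higher gene with another sign, at 4.08, 9.56 and 9.79 TPM in parental and 6.16, 3.27 and 15.1 TPM in UV2 anti-PD-1 tumors (-0.08, adjusted p = 0.916). The difference of its 2 line effects had an adjusted p of 0.8, so that it was not shown to differ between the antibodies.

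**Figure D5:**
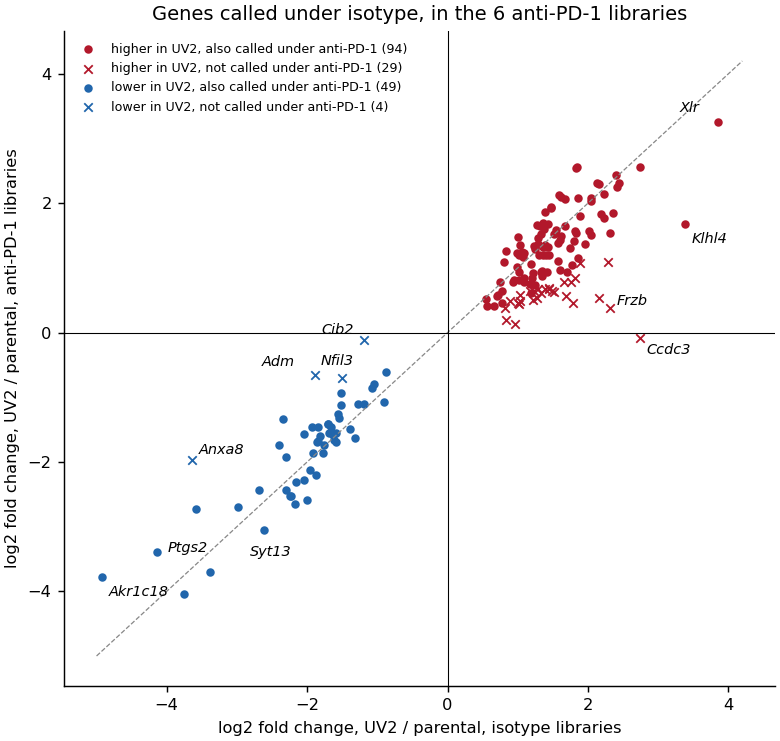
Log2 fold change of UV2 over parental for the 176 genes called under isotype, with the isotype libraries on the x axis and the 6 anti-PD-1 libraries on the y axis; circles were also called under anti-PD-1 (94 higher, 49 lower), crosses were not, and the dashed line marks equal values. All but 1 of the points keep their sign, and Ccdc3 at -0.08 is the 1 gene higher under isotype that falls below 0.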

How the data were processed

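Bulk tumor RNA was measured in 15 libraries, of which the 6 isotype libraries form the main comparison. The TPM values were deposited by the authors as 1 table; Bowtie2, RSEM and the mouse builds mm10 and GRCm38 are named without versions, per the submitters' processing notes, and how reads shared by related genes were divided is not given in the sources used here. TPM keeps no depth, so counting error is unknown. Of 23420 symbols, the 13592 that reached 1 TPM in 3 or more libraries were tested as log2(TPM + 1) with limma 3.58.1 in R 4.3.3, by a model of 5 groups over all 15 libraries with trended, robust moderation and Benjamini-Hochberg adjustment. Fold changes are on that scale and understate changes of low genes. The anti-PD-1 comparison and the difference of the 2 line effects come from the same fit.

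Genes were named by rule: the 20 highest and 20 lowest called genes whose groups do not overlap and whose higher mean reaches 5 TPM, up to 6 called members of each of 58 lists (or 2 uncalled ones), the highest and lowest member of a list, and fixed markers. Others are stated to have been chosen after their values were seen. Members and lists were chosen with earlier results of these data known. In data simulated for this comparison over 13592 genes, the procedure recovered 49% of 100 genes changed by 1 on the log2 scale and 91% of 100 changed by 2, with 7 false calls among 147. The simulated noise was independent between genes, without shifts shared by a whole library, and only genes above a set mean level were changed. The recovered share and the false calls therefore need not carry over to the real libraries. Promoter sequences are from RefSeq (GRCm38.p6, 10735 of the tested genes, 79.0%), and gene positions from GENCODE. Alternatives changed the pseudocount, filter, scaling, samples, a replicate block and a muscle covariate, and left out each library. Results for some genes are not reported here.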

Additional observations from a re-analysis of the deposited data

How the results depend on the processing

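None of the 176 calls changed sign under the 15 alternatives, but their number moved widely, and the cause was not tested unless stated. Without the filter on low values, 82 genes were called (58 higher, 24 lower) among 18555 tested. With the 2 isotype groups fitted alone, 21 were called (11 higher, 10 lower), with fewer libraries behind the spread, and 14 of the 176 kept their call. After median-of-ratios scaling the split was 65 higher to 82 lower, and after quantile scaling it was 72 to 70. A pseudocount of 0.1, a filter at 5 TPM and the muscle covariate gave 181, 176 and 198 calls. Leaving out single libraries gave from 3 to 458 calls, from 2 to 364 higher and from 1 to 109 lower. Without both isotype libraries numbered 3, added after seeing the data, 528 were called (283 higher, 245 lower), including 128 of the 176, and the difference between antibodies gained 1 call where the main analysis had 0.

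The replicate block gave 37 isotype calls (25 higher, 12 lower), all among the 176, and 1512 lower genes under anti-PD-1. Whether the labels' numbers pair the samples is not stated, and so few pairs cannot decide it. Deviations of same-numbered isotype libraries correlated from -0.542 to 0.354 over 3 pairs. Those of differently numbered isotype libraries correlated from -0.52 to 0.619 over 6 pairs.

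For the anti-PD-1 comparison, median-of-ratios scaling called 1950 genes higher, and the absence of a filter 1476 lower. Leaving out single libraries gave from 9 to 4074 calls, from 2 to 1106 higher and from 6 to 2968 lower. TPM gives no depth, so the precision of low values is unknown.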

Other observations

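Cytosolic ribosomal protein genes were positive in 34 of 35 cases with a median of 0.22 and 0 calls, and the libraries disagreed. All parental values were exceeded by 33 of the 35 in UV2 replicate 1, 30 in replicate 2 and 1 in replicate 3. The shares of all tested genes were 30.4%, 22.3% and 34.5%. Rplp1, a protein of the ribosomal stalk, measured 2173, 2287 and 3563 TPM in parental and 4214, 5786 and 3622 TPM in UV2 tumors (adjusted p = 0.0851, limma). Heat shock and chaperone genes were negative in 19 of 23 cases (median -0.21). In UV2 replicate 2, 22 of the 23 lay below all parental values, as did 53.6% of all tested genes in that library. Of 26 unfolded protein and amino acid stress genes, 18 were negative and 0 were called. Psat1, an enzyme of serine synthesis, measured 202, 188 and 190.1 TPM in parental and 122, 87.6 and 115 TPM in UV2 tumors, without overlap (adjusted p = 0.148). Fth1, the ferritin heavy chain, was called higher at a very high level, 4366, 4577 and 5684 TPM in parental and 7664, 9554 and 6835 TPM in UV2 (0.71 ± 0.15, adjusted p = 0.0395), and is named after its values were seen.

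Of 32 chemokines, 25 were positive with a median of 1.14, and Xcl1 alone was called. Ccl17, a ligand of CCR4, measured 0, 0.56 and 0.95 TPM in parental and 6.23, 57.00 and 3.64 TPM in UV2 tumors (adjusted p = 0.0573), while Cxcl14 had the opposite sign (-1.40, adjusted p = 0.312). None of 14 plasmacytoid dendritic cell genes was called, with a median of 1.14. Pld4, an exonuclease of endolysosomes, had 107, 94.2 and 166 TPM in parental and 183, 364 and 425 TPM in UV2 tumors (1.35 ± 0.35, adjusted p = 0.0784). Mast cell, basophil and eosinophil genes (14 tested, median 0.77), complement genes (20 tested, median 0.69), neutrophil markers (18 tested, median 0.41) and Schwann cell markers (13 tested, median -0.27) had 0 calls. Cma1, mast cell chymase, measured 60.7, 30.4 and 90.8 TPM and 100.03, 171 and 233 TPM without overlap (adjusted p = 0.119). C1qc, a chain of complement C1q made by macrophages, measured 603, 566 and 1042 TPM and 1079.7, 2377 and 1748 TPM (adjusted p = 0.0692).

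Besides the 2 elements described above, 12 motifs were searched in the same promoters on both strands, chosen with the results known, and their shares are given in the order higher, lower and all tested genes. The gamma-activated site TTCNNNGAA was found in 13.3%, 5.56% and 8.41%, the NF-kB site (GGG, any 2 bases, TTTCC) in 5.10%, 0% and 2.07%, and the AP-1 site TGANTCA in 12.2%, 8.33% and 6.66%. The E-box CACGTG was found in 4.08%, 13.9% and 11.4%, the hypoxia half-site ACGTG, which the E-box contains, in 15.3%, 27.8% and 28.5%, and the TATA box TATAAA in 15.3%, 11.1% and 9.41%. The variant TGACGTNA, which includes the full cAMP element, was found in 4.08%, 13.9% and 5.46%, its half-site TGACG in 21.4%, 44.4% and 34.3%, and the NFAT core GGAAAA in 26.5%, 36.1% and 24.2%. The MEF2 site was found in 1.02%, 0% and 0.121%, the CArG frame (CC, any 6 bases, GG) in 76.5%, 83.3% and 88.1%, and the serum response element in 0%, 0% and 0.037%. These shares carry no test.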
